A study of Mus musculus with 4 samples.

Results

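Contacts between a gene-poor and a gene-dense interval of mouse chromosome 1 in embryonic stem cells were measured by tiled capture Hi-C. Every pair of 6.4-kb bins was taken that had 1 bin in chr1:72928001-73926400, the gene-poor interval of 156 bins, and the other bin in chr1:74246401-75654400, the gene-dense interval of 220 bins (NCBIM37 coordinates). The rule used position only and no measured contact, but it was chosen with earlier results of these data known. It gave 34320 pairs of the 155403 bin pairs on chromosome 1 and of the 315759 in the whole series, at separations of 326.4 to 2720 kb with a median of 1523.2 kb. A contact value could be given for 33852 of them (98.6%). The remaining 468 pairs involved 3 gene-dense bins without a balancing factor, 2 of which are an assembly gap at chr1:75104001-75116800.

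The series asked how cohesin and CTCF sites shape a locus on chromosome 15 in E14 mouse embryonic stem cells. A region of chromosome 1, for which no edit is described, was captured in the same experiment. The methods text names baits on chromosome 15 only, and the capture of chromosome 1 is taken from the deposited maps. All 4 libraries came from clones of 1 parental line in which internal CTCF sites of the chromosome 15 domain had been deleted. All carried TetO and LacO arrays heterozygously on chromosome 15, the TetR-tdTomato and LacI-eGFP proteins that bind them, and RAD21, the kleisin subunit of cohesin, tagged with HaloTag and FKBP, and all were grown in serum with LIF and inhibitors of MEK and GSK3. The line 1A2 had no 3xCTCF sites beside the arrays. 1F4 likewise had none but kept the promoters of its resistance cassettes, and 1B1 had convergent 3xCTCF sites. The library named 1B1 -cohesin was 1B1 given 500 nM dTAG-13 for 2 h, which degrades the tagged RAD21. Each group had 1 library from 1 clone, so no difference below has a replicate check, clone and genotype cannot be told apart, and every error is the Poisson counting error of the reads (±1 SD). Counting errors take each read as an independent molecule.

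Chromosomes fold on more than 1 principle. Active, gene-rich chromatin and inactive, gene-poor chromatin each tend to contact chromatin of their own kind, which is called compartmentalisation. Cohesin extrudes loops that bring neighbouring sequence together until CTCF halts it, and its removal is known to weaken domains while compartmental contrast persists or grows.

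The intervals differed in gene content. The gene-poor interval held a single protein-coding start site, that of Tnp1 (chr1:73062473 on the minus strand), which encodes a transition protein that replaces histones in spermatids. Only 1.28% of its bins lay in a coding gene, and its mean GC content was 43.03%. The gene-dense interval held 50 coding start sites, or 35.5 per Mb, 73.6% of its bins lay in a coding gene, and its mean GC content was 47.39%. Between them lay an interval of 320 kb around Tns1, whose pairs are not members.

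CpG density at start sites is a property by which gene-dense and gene-poor chromatin can differ, so the 250 bases upstream of 3 start sites are shown 5′ to 3′ from NCBIM37 with each CpG in capitals. They are Tnp1 (chr1:73062474-73062723, minus strand), then the gene-dense start site with the lowest mean contact to the gene-poor interval over the untreated libraries, Tuba4a (chr1:75215829-75216078, minus strand), and that with the highest contact, Ttll4 (chr1:74708069-74708318, plus strand).
Tnp1: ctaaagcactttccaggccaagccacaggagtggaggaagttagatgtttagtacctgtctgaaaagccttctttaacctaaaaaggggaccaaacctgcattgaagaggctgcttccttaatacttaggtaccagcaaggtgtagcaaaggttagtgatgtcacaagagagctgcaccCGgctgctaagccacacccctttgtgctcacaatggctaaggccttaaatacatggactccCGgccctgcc
Tuba4a: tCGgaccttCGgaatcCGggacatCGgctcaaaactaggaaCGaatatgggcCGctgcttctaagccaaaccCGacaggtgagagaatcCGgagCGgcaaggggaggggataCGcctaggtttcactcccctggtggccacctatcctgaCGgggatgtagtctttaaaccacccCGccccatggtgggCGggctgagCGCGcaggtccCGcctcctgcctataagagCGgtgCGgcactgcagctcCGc
Ttll4: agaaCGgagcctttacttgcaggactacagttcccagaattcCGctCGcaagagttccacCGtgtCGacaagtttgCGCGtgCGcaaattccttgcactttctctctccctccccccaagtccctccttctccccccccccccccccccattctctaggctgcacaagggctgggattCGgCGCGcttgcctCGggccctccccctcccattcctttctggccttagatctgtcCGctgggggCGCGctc
The Tnp1 sequence held 2 CpGs, that of Tuba4a 19 and that of Ttll4 15. Across the 50 gene-dense start sites the median was 12, with a range of 0 to 35, and 94.0% held at least 1 (CG reads the same on both strands). At 6 of the 50 the count was at or below that of Tnp1.

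The libraries held 3211645 (1A2), 4086711 (1F4), 3232132 (1B1) and 3619350 (1B1 -cohesin) read pairs. Member pairs took 21631 (1A2), 23247 (1F4), 25872 (1B1) and 22253 (1B1 -cohesin) reads, a mean below 1 read per pair in each. Between 52.5% and 57.8% of member pairs had no read, so all values below are sums over many pairs. Members were 28.6% of the chromosome 1 pairs at their separations but held only 7.84% (1A2), 7.24% (1F4), 8.10% (1B1) and 9.18% (1B1 -cohesin) of the reads there. Reads joining chromosome 1 to chromosome 15 numbered 4.16, 4.68, 5.35 and 7.52 per 1000 possible bin pairs in the same order, against 0.639, 0.687, 0.764 and 0.657 reads per member pair.

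Members made less contact than their separation predicted in all 4 libraries. The expected value of a pair was the mean balanced contact of all chromosome 1 pairs at the same separation. Observed over expected contact (O/E) was 0.468 ± 0.00405 for 1A2, 0.443 ± 0.00367 for 1F4, 0.468 ± 0.00368 for 1B1 and 0.474 ± 0.00411 for 1B1 -cohesin. The mean balanced contact was 3.77 in 1B1 where 8.05 was expected, and 3.03 in 1B1 -cohesin where 6.39 was expected. The deficit was therefore more than 2-fold and of similar size in each library.

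Relative to all pairs of the same separation, the deficit was deepest at short range. Separations were divided into bands of 326.4 to 640 kb, then up to 1280 kb, up to 1920 kb and up to 2720 kb. In 1A2 the O/E was 0.399 ± 0.012 in the nearest band, 0.427 ± 0.00605 and 0.502 ± 0.00681 in the next, and 0.612 ± 0.0134 in the farthest. It rose with separation in the same order in 1F4 (0.361 to 0.598), in 1B1 (up to 0.604) and in 1B1 -cohesin (0.380 to 0.682). Members themselves make up 5.37%, 24.7%, 49.1% and 32.8% of the chromosome 1 pairs in these bands, so they pull their own expected value down. With the expected value taken from the other pairs alone, O/E was 0.365 (1A2), 0.344 (1F4), 0.364 (1B1) and 0.363 (1B1 -cohesin). The trend with separation then changed, since the bands of 1A2 stood at 0.382, 0.354, 0.340 and 0.474 and only the farthest band was higher than the nearest.

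**Figure D1:**
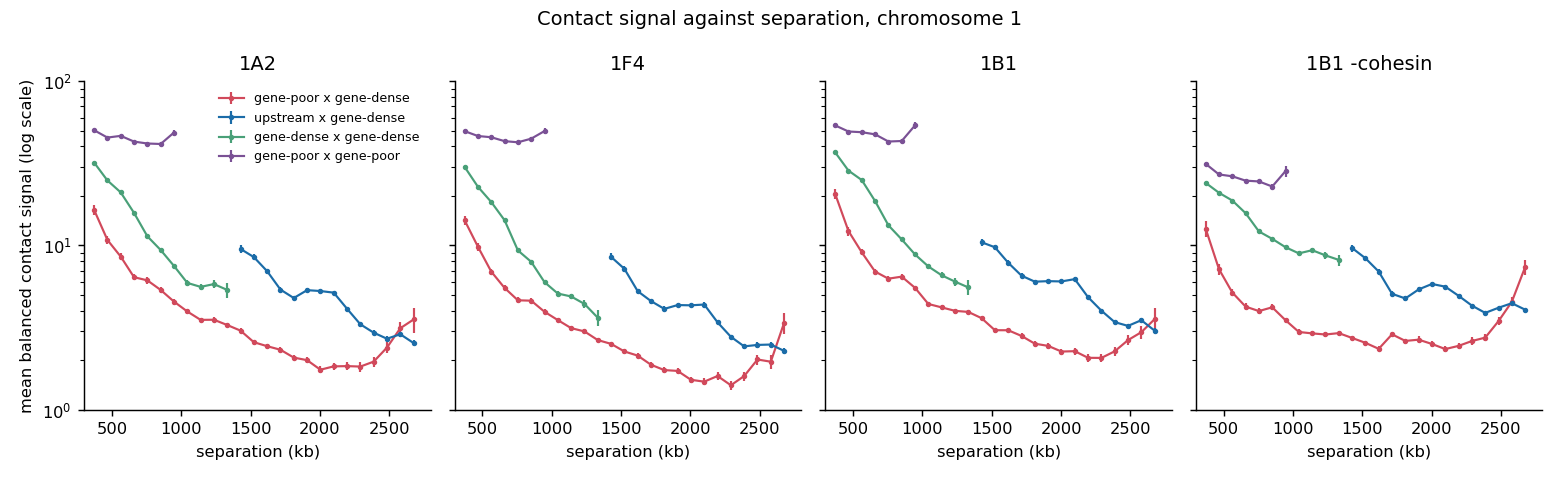
Mean balanced contact (log axis) against genomic separation in kb in each of the 4 libraries, for member pairs and for pairs between upstream and gene-dense, within gene-dense and within gene-poor sequence. Points are means over separations and bars are counting errors; member pairs lie lowest except near the largest separations, where they rise.

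Matching pairs by separation removes the expected value from the comparison. The upstream interval, which runs from position 72083201 to the edge of the gene-poor one, holds 10 coding start sites, and its pairs with the gene-dense interval span the gene-poor interval. At equal separations of 1350.4 to 2694.4 kb, members lay below these pairs by a log2 ratio of -1.41 ± 0.029 (1A2), -1.41 ± 0.028 (1F4), -1.35 (1B1) and -1.24 (1B1 -cohesin). In folds, the upstream pairs exceeded the members 2.65-, 2.66-, 2.55- and 2.37-fold. Averaged over these separations, gene-poor sequence thus met the gene-dense interval less often than upstream sequence did. At the far end the order turned, and around 2675.2 kb members stood at 3.54 ± 0.627, 3.38 ± 0.502, 3.56 ± 0.62 and 7.39 ± 0.756 and upstream pairs at 2.55, 2.28, 3.03 and 4.07, from 120 member pairs.

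Pairs inside an interval exceeded the members too. The largest gap was to pairs within the gene-poor interval at 352 to 966.4 kb, where members stood at a log2 ratio of -2.76 (1A2), -3.04 (1F4), -2.70 (1B1) and -2.49 (1B1 -cohesin). Against pairs within the gene-dense interval at 352 to 1376 kb the members stood at -0.85 in 1A2, -0.82 in 1F4 and -0.87 in 1B1. In 1B1 -cohesin they stood at -1.57. Against pairs of the upstream with the gene-poor interval the ratios lay between -1.74 and -1.48. Members were lower in 4 of 4 libraries against each class. For each, the exact two-sided sign-flip permutation test gives p = 0.125, the smallest value that 4 libraries allow. That test thus could not reach 0.05, and it takes 1B1 and 1B1 -cohesin, which are of 1 clone, as independent.

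The gap to gene-dense pairs was wider in 1B1 -cohesin, while the gaps to the other classes were narrower. Against gene-dense pairs the log2 ratio was 0.70 ± 0.04 lower in 1B1 -cohesin than in 1B1. It was higher by 0.109 ± 0.037 against upstream with gene-dense pairs, 0.21 ± 0.058 against gene-poor pairs and 0.123 ± 0.031 against upstream with gene-poor pairs. The first of these did not hold without the last 2 gene-dense windows (-1.46 in 1B1 and -1.49 in 1B1 -cohesin). O/E of pairs within the gene-dense interval was 0.882, 0.841 and 0.910 in the untreated libraries and 1.14 in 1B1 -cohesin, while that of members was nearly the same. The balanced contact of these gene-dense pairs was not higher in 1B1 -cohesin. It was 17.39 (1A2), 15.6 (1F4), 20.25 (1B1) and 16.04 (1B1 -cohesin), where 19.73, 18.55, 22.24 and 14.09 were expected. At 326.4 to 640 kb it was 25.5, 23.33, 29.59 and 21.03, lowest in 1B1 -cohesin. At 646.4 to 1280 kb, the balanced contact of members was 5.01 in 1B1 and 3.34 in 1B1 -cohesin, and that of gene-dense pairs was 11.11 and 11.15. In 1A2 these values were 4.41 and 9.44, and in 1F4 they were 3.76 and 8.03, so which side differed more depended on the untreated library compared. At these separations the members lay at a log2 ratio of -0.81 ± 0.026 to gene-dense pairs in 1B1 and at -1.58 ± 0.028 in 1B1 -cohesin.

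**Figure D2:**
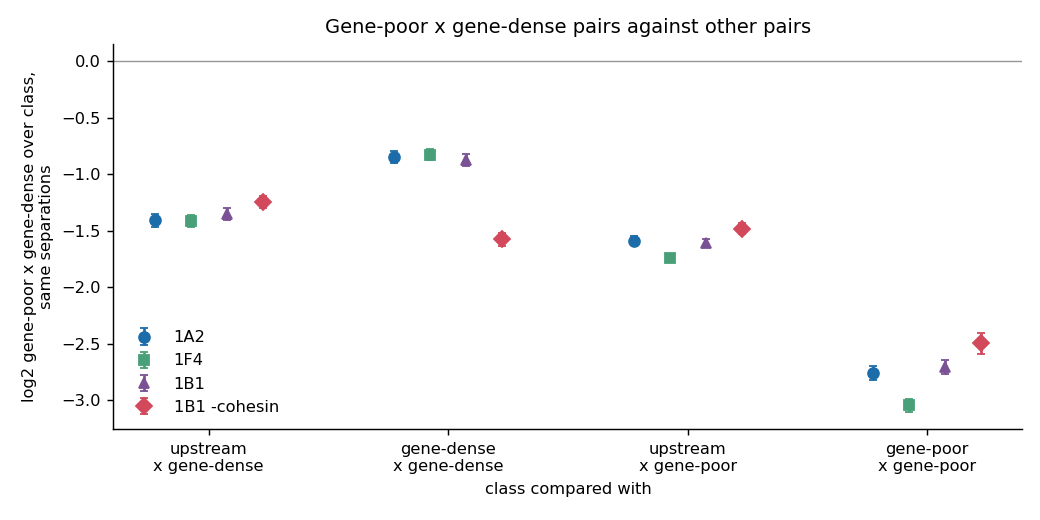
Log2 ratio of member contact to that of other pairs at equal separation, by comparison class and library, with 95% counting intervals. All ratios lie below 0, and against gene-dense pairs 1B1 -cohesin stands at -1.57 while the 3 untreated libraries stand between -0.87 and -0.82.

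The deficit covered most of the area between the intervals. In blocks of 10 by 10 bins (64 by 64 kb), O/E was under 1 over 1.5 in 271 of 330 member blocks in 1A2, against 36.2% of all 1121 chromosome 1 blocks tested. The count was 275 in 1F4 (background 39.2%), 274 in 1B1 (34.3%) and 265 in 1B1 -cohesin (33.0%). As shares these are 82.1, 83.3, 83.0 and 80.3% of member blocks, and 17.1, 20.7, 13.9 and 13.3% of the others. Median block O/E was 0.454, 0.423, 0.459 and 0.437 in the same order. Blocks ranged from 0.192 to 1.64 (1A2), from 0.177 to 1.45 (1F4), from 0.168 to 1.29 (1B1) and from 0.0726 to 2.07 (1B1 -cohesin). Block values of the untreated libraries followed each other with r of 0.835 to 0.86, and those of 1B1 -cohesin followed them with r of 0.65 to 0.704, over blocks that share bins.

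**Figure D3:**
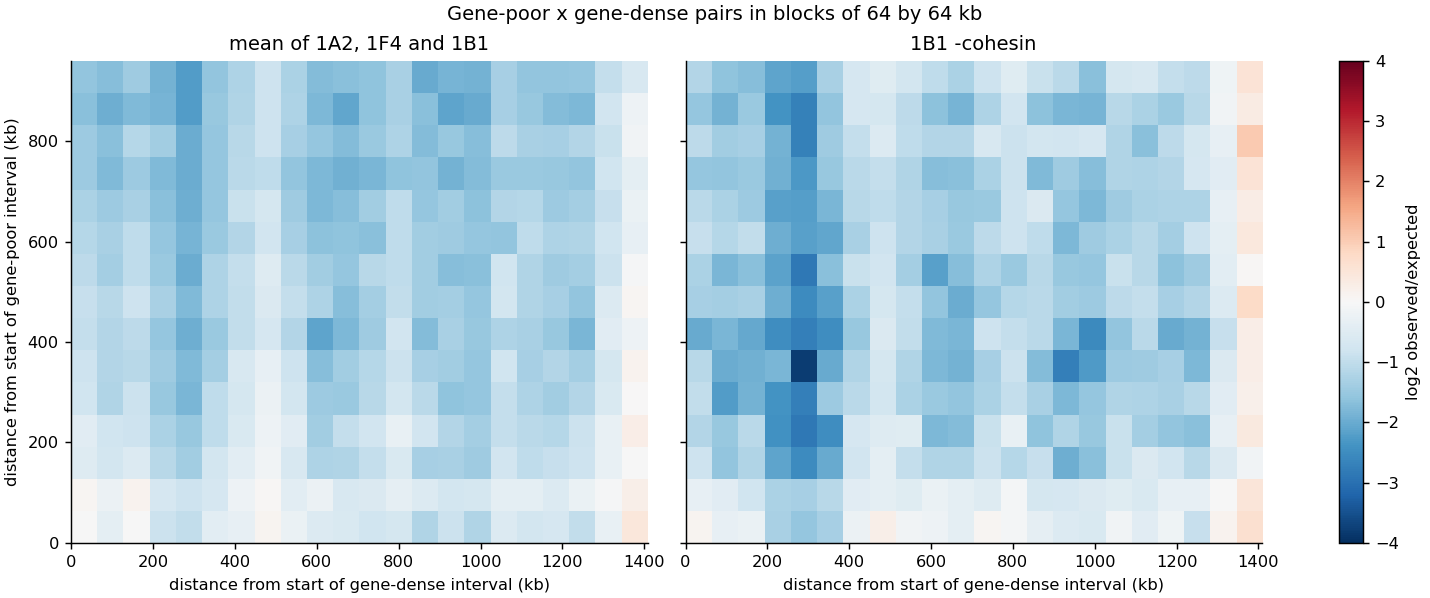
Log2 O/E of member pairs in blocks of 64 by 64 kb, plotted by distance in kb from the start of the gene-dense interval (horizontal) and of the gene-poor interval (vertical), for the mean of the 3 untreated libraries and for 1B1 -cohesin. Blue is below and red above expectation; the last gene-dense column is near 0 in the untreated libraries and mostly positive in 1B1 -cohesin, and the fifth is the darkest in both.

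Contact varied along the gene-dense interval. Of its 22 windows of 64 kb, all had O/E below 1 with the gene-poor interval in 1A2, 1F4 and 1B1, and 21 did in 1B1 -cohesin. By the mean of the untreated libraries, the lowest window held the start site of Rqcd1 (also known as Cnot9, a subunit of the CCR4-NOT deadenylase) and part of Usp37, a deubiquitinase gene, at chr1:74502401-74566400. Its O/E was 0.306 (1A2), 0.276 (1F4), 0.294 (1B1) and 0.191 (1B1 -cohesin). Next lowest by that mean was the window with the start sites of Glb1l, Stk16, Tuba4a, Dnajb2 and Ptprn, at 0.335, 0.351, 0.353 and 0.379 in the same order. The window of Cdk5r2, Fev and Cryba2 followed at 0.349, 0.354, 0.369 and 0.406. The order differed by library and expected value. With that from non-member pairs the window of Zfand2b, Abcb6 and Atg9a (untreated mean 0.253) was below that of Cdk5r2 (0.256). With the expected value from all pairs, the windows of Vil1 (0.253) and of Plcd4 and Usp37 (0.309) were lower in 1B1 -cohesin than those of Tuba4a and Cdk5r2. The genes around Cdk5r2 encode products as unlike as an activator of the neuronal kinase Cdk5 (Cdk5r2), an ETS factor of serotonergic neurons (Fev) and a lens crystallin (Cryba2).

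The windows of highest contact by the untreated mean were the end of the interval and that of Ttll4. The last window, chr1:75590401-75654400, holds no coding gene and had O/E of 0.972 (1A2), 0.964 (1F4), 0.901 (1B1) and 1.38 (1B1 -cohesin). Ttll4, which encodes a tubulin polyglutamylase, lies in a window at 0.709, 0.651, 0.731 and 0.651. The window of Slc4a3, an anion exchanger gene, came next at 0.657, 0.655, 0.678 and 0.820. In the Slc4a3 and last windows 1B1 -cohesin lay above all untreated libraries, whereas in the Ttll4 window it equalled the lowest of them within counting error.

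**Figure D4:**
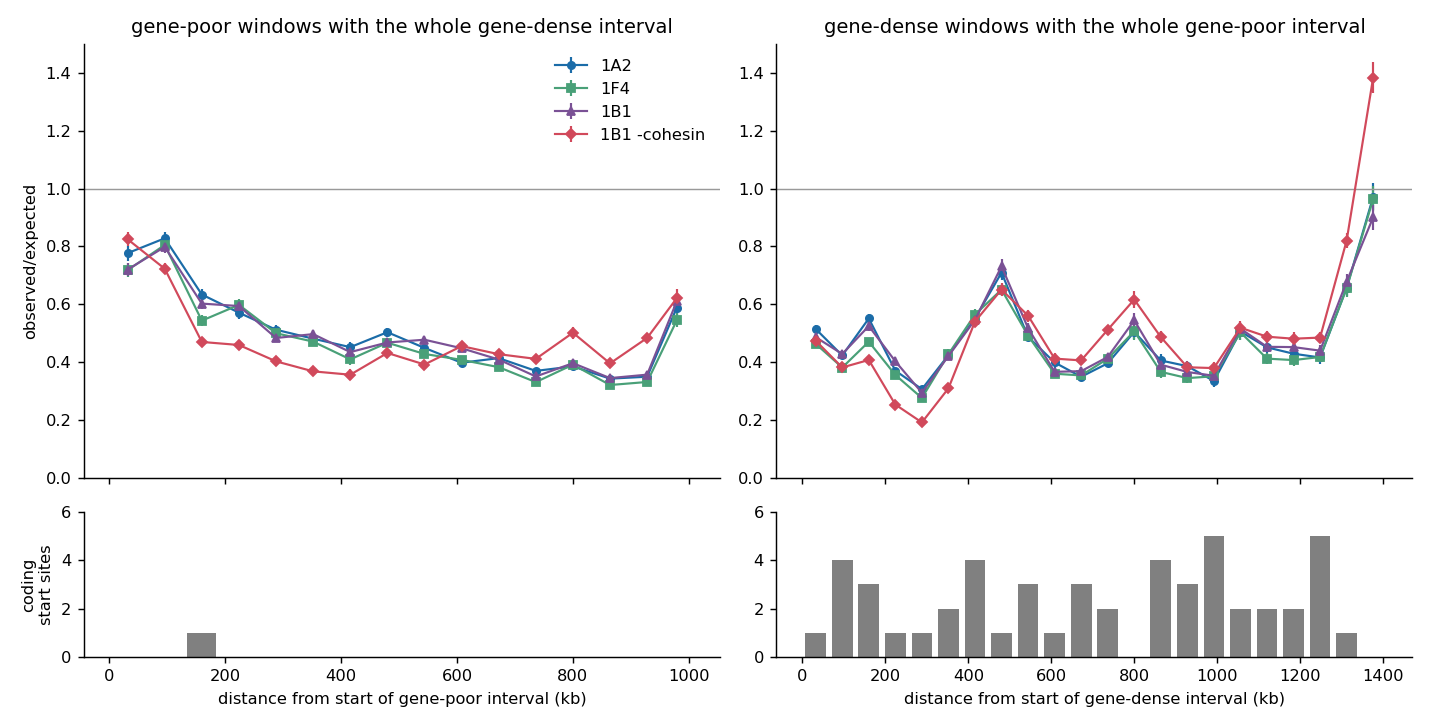
O/E of each 64-kb window of the gene-dense and of the gene-poor interval with the whole other interval, by distance in kb from the interval's start, in the 4 libraries with counting errors. The 3 untreated lines run close together below 1; 1B1 -cohesin lies below them in windows 3 to 7 of the gene-dense interval and reaches 1.38 in its last window.

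The high values at the end of the gene-dense interval lay in bins of low coverage. The last 2 windows, chosen after their values were seen, had O/E of 0.811 (1A2), 0.806 (1F4), 0.787 (1B1) and 1.099 (1B1 -cohesin). From reads that were not balanced these values were 0.676, 0.667, 0.648 and 0.886. In the last window alone the unbalanced O/E was 0.586, 0.602, 0.534 and 0.853. Its bins had a median of 2111.5 to 2802.5 reads, against 4690 to 5969 over the gene-dense interval, and balancing factors 1.42 to 1.61 times the interval's median; their part in the result was not tested. At equal separations of 1632 to 2566.4 kb their log2 ratio to the other gene-dense windows was 0.58 ± 0.06 (1A2), 0.60 ± 0.058 (1F4), 0.52 ± 0.057 (1B1) and 0.97 ± 0.052 (1B1 -cohesin). Pairs of the upstream interval with the same windows were higher too, by log2 ratios of 0.31, 0.36, 0.22 and 0.63 at 2630.4 to 3411.2 kb. With the expected value from non-member pairs the last 2 windows were at 0.620, 0.611, 0.599 and 0.879, below 1 in each library. Without these windows the member O/E was 0.452, 0.427, 0.453 and 0.433.

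Along the gene-poor interval, contact was highest at its far end. The window of Tnp1 had O/E of 0.634 (1A2), 0.543 (1F4), 0.602 (1B1) and 0.470 (1B1 -cohesin). The 6.4-kb bin of its start site was at 0.687 ± 0.0676, 0.657 ± 0.0642, 0.755 ± 0.0627 and 0.597 ± 0.0551 in the same order. In 1A2, O/E fell from 0.828 in the second window to 0.343 in the fourteenth, the latter being much closer to the gene-dense interval. It was 0.588 in the last window, which adjoins the Tns1 interval. All 16 windows were below 1 in each library.

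A narrow strip in the gene-poor interval had higher contact than the rest of it. It lies in the first and second 64-kb windows of that interval, so the high values of those windows include it. The 5 member windows of 5 by 5 bins with the highest contact in the untreated libraries, out of 2031 with at least 30 reads, all had their gene-poor end in chr1:72979201-73017600, which holds no gene. This strip of 6 bins, chosen after these values were seen, lies 57.7 kb upstream of the start of Igfbp5, a minus-strand gene which encodes a binding protein of insulin-like growth factors, and 44.1 kb from Tnp1. Its O/E with the gene-dense interval was 1.02 ± 0.0325 (1A2), 1.04 ± 0.0309 (1F4), 0.980 ± 0.0279 (1B1) and 0.978 ± 0.0284 (1B1 -cohesin). The rest of the gene-poor interval stood at 0.455, 0.429, 0.456 and 0.459. Without balancing the strip was at 1.16, 1.19, 1.14 and 1.07. At equal separation its log2 ratio to the rest was 0.87, 0.96, 0.86 and 0.70, with counting errors of 0.047 to 0.053. With the expected value from non-member pairs the strip was at 0.747, 0.749, 0.715 and 0.731 and the rest at 0.355, 0.334, 0.355 and 0.352, so the strip's contact was near expectation only where members entered the expected value. The choice of the strip by its high values fixed its place above the rest in the untreated libraries.

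The gene-dense ends of these windows fell at several genes, and 3 of the 5 lay nearly side by side between Pnkd and Ctdsp1. That overlapping only the downstream end of Wnt10a, a Wnt ligand gene, was at 1.67 (1A2), 1.79 (1F4), 1.66 (1B1) and 1.76 (1B1 -cohesin). The start site of Wnt10a lies outside this window. Its bin had a low O/E with the whole gene-poor interval, at 0.294, 0.315, 0.318 and 0.358 in the same order. The window at Gm216 (Catip), Slc11a1, a metal transporter gene of phagosomes, and Ctdsp1, a phosphatase gene, was at 1.63 ± 0.222, 1.56 ± 0.216 and 1.73 ± 0.214 in the untreated libraries and at 0.872 ± 0.156 in 1B1 -cohesin. Another window held no coding gene but those of Mir1928, a microRNA, and a U6 RNA, at 1.85, 1.79, 1.43 and 1.48. Those at Pnkd with Tmbim1 (1.42, 1.44, 1.47 and 1.32) and at Pnkd with Gm216 (1.44, 1.47, 1.37 and 1.28) completed the set. These windows hold 29 to 73 reads per library. They were chosen for high values and at least 30 reads in the untreated libraries, so lower values in 1B1 -cohesin follow in part from the choice.

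Each of the 50 coding start sites of the gene-dense interval had a mean untreated O/E below 1. They shared 42 bins, and the untreated means ranged from 0.274 at Tuba4a, an alpha-tubulin gene, to 0.712 at Ttll4, with a median of 0.439. The Tuba4a bin was at 0.265 ± 0.0342 (1A2), 0.297 ± 0.0481 (1F4), 0.259 ± 0.0322 (1B1) and 0.318 ± 0.0497 (1B1 -cohesin). At Ttll4 the values were 0.768 ± 0.079, 0.582 ± 0.0512, 0.787 ± 0.0801 and 0.694 ± 0.0617. Both were chosen by these values. In single libraries other start sites were lower than Tuba4a, such as Dnajb2 in 1A2 (0.213) and Atg9a in 1B1 -cohesin (0.263). Likewise Slc4a3 was higher than Ttll4 in 1F4 (0.612) and in 1B1 -cohesin (0.797).

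By list, the untreated median was 0.378 for 7 signalling and developmental genes (Wnt6, Wnt10a, Ihh, Inha, Fev, Cdk5r2, Ptprn) and 0.376 for 16 broadly expressed genes in 13 bins. It was 0.454 for 7 cytoskeletal and muscle genes, 0.468 for 7 metabolic genes and 0.467 for 6 of 8 receptor, transporter and channel genes, Cxcr1 and Cxcr2 lying outside the interval. The median over all 50 start sites was 0.439, and differences between lists were not tested. In 1B1 -cohesin the medians were 0.422, 0.332, 0.475, 0.456 and 0.457 in the same order, against 0.443 over all 50.

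At the start sites of these lists, values of 1B1 -cohesin stood on both sides of the untreated ones. 1B1 -cohesin lay above all 3 untreated libraries at 5 of the 7 signalling genes, against 20 of all 50 start sites, and below them at 1, against 9 of 50. It lay above at 2 and below at 2 cytoskeletal genes, above at 2 and below at 1 in both the receptor and the metabolic list, and above at 4 and below at 3 broadly expressed genes. At Wnt6, another Wnt ligand gene, O/E was 0.393, 0.317 and 0.435 in 1A2, 1F4 and 1B1 and 0.538 in 1B1 -cohesin. At Ihh, a hedgehog ligand gene, it was 0.317, 0.415 and 0.401, and 0.451 in 1B1 -cohesin. At each of the 5 signalling genes above the untreated libraries, the log2 ratio of 1B1 -cohesin to 1B1 was within 2 counting errors of 0, from 0.17 ± 0.174 at Ihh to 0.41 ± 0.277 at Cdk5r2, and all 5 lie in windows 9 to 12 of the gene-dense interval.

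Log2 ratios of 1B1 -cohesin to 1B1 above 0.4 in size and beyond 2 counting errors were found at 8 of the 50 start sites. The share of other bins past these cuts was not computed, so these start sites are described and not set apart from other bins. At Nhej1, of non-homologous end joining, O/E was 0.419, 0.530 and 0.393 in the untreated libraries and 0.635 in 1B1 -cohesin, a log2 ratio to 1B1 of 0.69 ± 0.258. At Vil1, which encodes the actin-bundling protein villin, it was 0.438, 0.399 and 0.517, and 0.330 in 1B1 -cohesin, a log2 ratio of -0.65 ± 0.174. Rqcd1 had a log2 ratio of -0.79 ± 0.324, Ctdsp1 of -0.54 ± 0.208, Gm216 of -0.41 ± 0.169, and Usp37 and Plcd4, which share a bin, of -0.50 ± 0.193. Stk11ip had a log2 ratio of 0.51 ± 0.231. The genes with the negative ratios lie in windows 3 to 6 of the gene-dense interval.

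**Figure D5:**
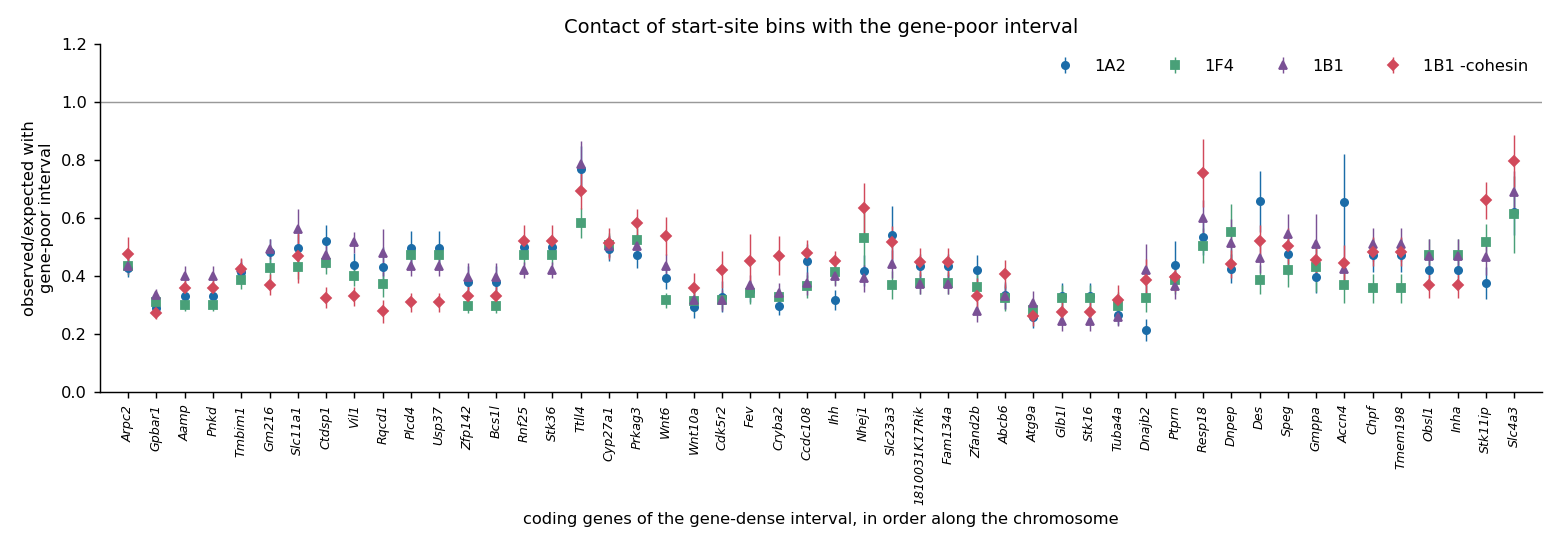
O/E with the gene-poor interval of the 6.4-kb bin of each coding start site of the gene-dense interval, in order along the chromosome, in each of the 4 libraries, with counting errors. All start sites lie below 1 in each library, and by the mean of the untreated libraries Tuba4a is lowest at 0.274 and Ttll4 highest at 0.712.

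Between 1B1 and 1B1 -cohesin the O/E of the members as a whole differed by a log2 ratio of 0.02 ± 0.017. The log2 ratio of their balanced contact in 1B1 -cohesin was -0.32 to 1B1, -0.10 to 1A2 and 0.15 to 1F4, while untreated 1B1 stood at 0.47 to 1F4 and 0.22 to 1A2. Over all separations, the balanced contact of the treated library thus lay within the range of the untreated ones. In the nearest band it was lower than in each of them (6.28 against 8.08 to 10.73), as in the next (3.34 against 3.76 to 5.01). In the third band it lay within their range (2.68 against 2.17 to 3.115), and in the farthest it was higher than in each (2.75 against 1.61 to 2.29). By band the O/E ratio to 1B1 was -0.07 ± 0.07, -0.11 ± 0.028, -0.02 ± 0.027 and 0.18 ± 0.038 from the shortest to the longest separations, and the balanced contact ratio was -0.77, -0.59, -0.22 and 0.26. The sign of the overall ratio was not stable, since it was -0.065 without the last 2 gene-dense windows and -0.21 with the expected value of the captured region on chromosome 15.

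Two-sided Fisher's exact tests compared member reads with other chromosome 1 reads of the same band, for 6 pairs of libraries and 4 bands, and these tests compare libraries and not conditions. For 1B1 -cohesin over 1B1 the odds ratio was 0.918 (Fisher's exact test, adjusted p = 0.0303) in the nearest band and 0.954 (adjusted p = 0.0152) in the next. In the farther bands it was 0.972 (Fisher's exact test, adjusted p = 0.151) and 1.02 (adjusted p = 0.47). The farthest band thus differed between these libraries in O/E (log2 ratio 0.18 ± 0.038) but not in the share of reads by this test. Of the 24 tests, 8 had an adjusted p below 0.05, and 6 of these were between untreated libraries. The log2 ratio of member O/E in 1F4 to that in 1A2 was -0.08 ± 0.017, with odds ratios of 0.910, 0.957, 0.935 and 0.958 and exact-test adjusted p of 0.00917, 0.0162, 0.0023 and 0.216 from the nearest band to the farthest. For 1B1 over 1F4 the log2 ratio was 0.08 ± 0.016, with exact-test adjusted p of 0.00298, 1.78e-05, 0.00298 and 0.289. Neither 1B1 nor 1B1 -cohesin passed the test against 1A2 in any band, where the adjusted p was 0.102 to 0.801 and 0.0627 to 0.692. The tests between untreated libraries that passed all involved 1F4, and for 1B1 over 1A2 the odds ratios were 0.993 to 1.03. In the nearest band the odds ratio of 1B1 -cohesin to 1B1 was close to that of 1F4 to 1A2 (0.910).

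The overall O/E held lower and higher stretches that offset each other. Of 330 member blocks, 53 were more than 1.5-fold lower in 1B1 -cohesin than in 1B1, against 10.5% of all 1119 blocks, and 34 were more than 1.5-fold higher, against 13.9%. As shares, 16.1% of member blocks were lower and 10.3% higher, against 8.24% and 15.3% of the others. Between untreated libraries 8 member blocks were higher in 1B1 than in 1A2 (background 0.983%) and 9 lower (1.34%), and of 329 blocks 11 were higher in 1F4 than in 1A2 (1.97%) and 11 lower (1.79%). These are 2.42, 2.73, 3.34 and 3.34% of member blocks, against 0.38, 0.76, 1.39 and 1.14% of the others. Member blocks thus passed this cut more often than others between untreated libraries too. Window ratios of 1B1 -cohesin to 1B1 ran from -0.67 to 0.62 along the gene-dense interval, while those of 1B1 to 1A2 ran from -0.12 to 0.12 and those of 1F4 to 1A2 from -0.23 to 0.07.

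The treated library lay below all 3 untreated libraries in gene-dense windows 3 to 7, from Gm216 to Stk36, and above them in 13 windows, all from the ninth on. The log2 ratio to 1B1 was beyond 2 counting errors in windows 3 to 6 of the former and in windows 10, 12, 14, 21 and 22 of the latter. That ratio was within 1 counting error in windows 7 (-0.015 ± 0.064), 16 (0.105 ± 0.107), 17 (0.009 ± 0.094) and 19 (0.09 ± 0.104). With the expected value from non-member pairs, windows 2 and 8 were below too. In the gene-poor interval it lay above in 8 windows and below in 8, those below being windows 2 to 9. The first window, farthest from the gene-dense interval, was above (0.825 against 0.718 to 0.777), and windows 10 and 16 were no longer above with the expected value from non-member pairs. Windows 3 to 7 had log2 ratios to 1B1 of -0.41 ± 0.132, -0.30 ± 0.039 and -0.58 ± 0.057 in the 3 nearer bands, and the 13 windows 0.45 ± 0.065, 0.17 ± 0.035 and 0.19 ± 0.039 in the 3 farther ones. These window sets were formed by the same values, so the ratios describe them and carry no test. In the middle bands, which both sets fill, they lay on opposite sides of 0.

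Base composition followed the contact weakly. Over 217 gene-dense bins, O/E correlated with GC content at r = -0.147 (1A2), -0.170 (1F4), -0.155 (1B1) and -0.077 (1B1 -cohesin). Over 156 gene-poor bins r was 0.259, 0.272, 0.259 and 0.281. Bins share partners and a library, so these are descriptions. Gene-dense bins with more reads had lower O/E (r of -0.414, -0.370, -0.404 and -0.323), a relation of which the part in the result was not tested. The 42 gene-dense bins with a coding start site had a median O/E of 0.427 in 1A2 and the 175 without 0.431, and the 55 bins outside coding genes 0.501. In 1B1 -cohesin these medians were 0.446, 0.453 and 0.557.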

How the data were processed

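Tiled capture Hi-C was made with MboI after 1% formaldehyde fixation in 4 libraries. According to the methods and the submitters' processing notes, the authors used HiC-Pro 2.11.4 on mm9 (NCBIM37), kept unique valid pairs within the captured regions, rescued chimeric reads at ligation junctions, and deposited ICE-balanced contact signal in 6.4-kb bins, scaled to a similar total in each library. Each deposited signal value equals a whole number of reads times 1 factor per bin, which gave back the reads (100% within 0.05 of a whole read) and the unbalanced maps. Differences in capture between bins are removed by balancing as far as a single factor per bin can. Depth is 3211645 to 4086711 read pairs. No molecular identifiers are described, so intervals cover counting error only.

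O/E, separation-matched log2 ratios, and Fisher's exact tests with Benjamini-Hochberg adjustment over 24 tests were computed with Python 3.11.15, NumPy 2.4.6, SciPy 1.17.1 and pandas 2.3.3. O/E with the expected value from non-members and the matched ratio to upstream pairs were also computed on simulated data. The O/E with the expected value from all pairs and the Fisher's exact tests were not. Blocks needed a mean of 20 reads and strongest windows 30 in each untreated library. Genes are those of the NCBIM37 annotation. Named were the genes of the 3 highest and 3 lowest gene-dense windows, of the gene-poor interval, of the 5 strongest windows and of the lists. Members, lists and rules were chosen with earlier results of these data known. Alternatives changed the expected value, balancing, background, interval edges, filters, summary and weights.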

Additional observations from a re-analysis of the deposited data

How the results depend on the processing

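The values below are given in the order 1A2, 1F4, 1B1 and 1B1 -cohesin. The member O/E stayed below 1 in all 4 libraries under each alternative run. It was 0.365, 0.344, 0.364 and 0.362 with the expected value from non-members, 0.517, 0.490, 0.533 and 0.460 with that of chromosome 15, 0.450, 0.431, 0.455 and 0.454 without balancing, 0.430, 0.413, 0.438 and 0.410 with trimming, 0.445, 0.427, 0.449 and 0.454 without bins of few reads, 0.454, 0.423, 0.459 and 0.437 as the block median, and 0.452, 0.427, 0.453 and 0.433 without the last 2 gene-dense windows, an alternative chosen after seeing the data. The log2 ratio of 1B1 -cohesin to 1B1 was -0.21 with the chromosome 15 expected value, -0.10 with trimming, -0.065 as the block median and -0.065 without the last windows. The log2 ratio to upstream pairs was -1.19, -1.22, -1.19 and -0.99 with equal weights, -1.50, -1.50, -1.42 and -1.37 with trimming, and -1.53, -1.53, -1.46 and -1.49 without the last windows. It was -1.33 in 1A2 and -1.29 in 1B1 without balancing, and -1.48 in 1F4 and -1.43 in 1B1 without bins of few reads. The ratio of 1B1 -cohesin to 1F4, 0.098 without these changes, changed sign with the chromosome 15 expected value, to -0.09. It was -0.008 with trimming, 0.025 as the block median and 0.023 without the last windows. The ratio of 1B1 -cohesin to 1A2, 0.02 without these changes, was -0.17 with that expected value, -0.07 with trimming, -0.09 as the block median, -0.06 without the last windows and -0.009 with the expected value from non-members. The cause was not tested. No paired analysis was possible because each group has 1 library. With fewer than 1 read per pair, single bin pairs were not resolved at this depth.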

Other observations

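Noncoding start sites were not part of the gene lists. The 5S_rRNA gene, the only annotated gene of the gene-poor interval besides Tnp1, lay in a bin with O/E to the gene-dense interval of 0.323 (1A2), 0.262 (1F4), 0.268 (1B1) and 0.294 (1B1 -cohesin), below the Tnp1 bin in each library. In the gene-dense interval, the bin of Mir26b, a microRNA gene inside Ctdsp1, was at 0.342, 0.287, 0.372 and 0.246. The bin of Mir375, a microRNA known from pancreatic islets, was at 0.334, 0.318, 0.373 and 0.328. The bin of the pseudogene Gm5257 in the last gene-dense window was at 1.34 ± 0.176, 1.23 ± 0.158, 1.08 ± 0.15 and 1.66 ± 0.158, where the value for 1B1 is within 1 counting error of 1. The expected value includes the members, and that window's bins have few reads.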
